A study of Mus musculus with 16 samples.

Results

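The genes described here are those of the presynaptic vesicle cycle, 39 genes for vesicle, SNARE, active zone and endocytosis proteins. They were chosen by function, with earlier results of these data known. All probe sets that the platform annotation pairs with 1 of the 39 symbols alone were taken, which gave 98 probe sets. The whole table held 18194 gene symbols paired in this way. Total RNA of 16 hippocampus samples from male mice, labelled as strain C56/BL6 and 2 months old, was measured on Affymetrix expression arrays, with 4 arrays in each of 4 groups. WT is labelled wild type. APPKO is labelled APP-/- and lacks the amyloid precursor protein. APLP2KO is labelled APLP2-/- and lacks its relative APLP2. N-dCKO carries the label of both losses, APP-/-; APLP2-/-, and the series title calls this line neuronal and conditional. The driver of the deletion and the cells that carry it are not given in the sources used here. No treatment is labelled in any group. Whether the 4 samples of a group came from different animals is not stated in the labels, and the p-values rest on sample-to-sample spread that could be technical alone.

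At a presynaptic terminal, vesicles are filled with transmitter, tethered at the active zone and primed. The SNARE proteins of vesicle and plasma membrane zip together when calcium binds to synaptotagmin, and the vesicle fuses. NSF and its SNAP adaptors then take the SNAREs apart, and dynamin, amphiphysin, endophilin and synaptojanin retrieve and uncoat new vesicles. In the hippocampus this machinery works at the glutamatergic terminals of granule and pyramidal neurons and at the terminals of GABAergic interneurons. APP and APLP2 are membrane proteins found in axons and at presynaptic sites, among other places.

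None of the tested genes of the vesicle cycle differed between genotypes by the criterion used here, a limma adjusted p below 0.05 over all 11664 genes tested. Of the 39 genes, 38 passed a filter on low signal and were tested; Sv2c, a vesicle glycoprotein of the SV2 family, did not pass it, with signals of 9.33 to 97.1 over the 16 arrays. The gene nearest to the threshold was Sv2a, another SV2 glycoprotein and the binding site of the drug levetiracetam, at a log2 fold change of 0.23 ± 0.06 (SE) in N-dCKO against WT (limma adjusted p = 0.0764). The differences were small throughout. In N-dCKO against WT the 38 log2 fold changes lay between -0.13 and 0.30, in APPKO against WT between -0.14 and 0.17, and in APLP2KO against WT between -0.20 and 0.37.

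Of the 39 genes, 31 had a start site in the RefSeq promoter table of GRCm38.p6, 40 start sites in all. In the limma F test for any difference among the groups, 0 of the tested vesicle cycle genes were called (smallest adjusted p = 0.252). The 250 bases before the start of the 3 genes with the smallest p in that test are given. They are written 5′ to 3′ on the gene's strand, and capitals mark a GC box, GGGCGG, or a cyclic AMP response element core, TGACGT, on either strand, found without overlap.
Sv2a, plus strand, chr3:96180977-96181226: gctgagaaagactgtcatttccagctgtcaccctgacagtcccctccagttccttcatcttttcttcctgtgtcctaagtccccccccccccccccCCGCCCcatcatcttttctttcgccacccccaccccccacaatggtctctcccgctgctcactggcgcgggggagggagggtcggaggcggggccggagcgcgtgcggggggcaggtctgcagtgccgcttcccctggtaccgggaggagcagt
Rab3c, minus strand, chr13:110280207-110280456: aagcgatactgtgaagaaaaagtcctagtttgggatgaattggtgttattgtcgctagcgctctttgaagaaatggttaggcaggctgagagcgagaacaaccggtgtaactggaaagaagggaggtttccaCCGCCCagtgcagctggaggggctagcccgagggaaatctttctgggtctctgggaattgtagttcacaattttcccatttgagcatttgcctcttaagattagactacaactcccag
Sncb, minus strand, chr13:54766596-54766845: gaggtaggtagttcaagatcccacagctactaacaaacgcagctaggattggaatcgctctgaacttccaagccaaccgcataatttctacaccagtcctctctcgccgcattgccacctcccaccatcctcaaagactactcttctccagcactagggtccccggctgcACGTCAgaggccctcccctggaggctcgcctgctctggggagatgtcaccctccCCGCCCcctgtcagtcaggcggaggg
Each of the 3 windows held 1 GC box, and Sncb also held 1 cyclic AMP response element core. A GC box was in 57.5% of the 40 windows of vesicle cycle genes and in 32.7% of all 32851 windows of this length, and a TATA box, TATAAA, in 7.5% against 12.4%. The median GC content was 61.2% in these genes' windows and 52.4% in all windows. A cyclic AMP response element core was in 12.5% against 6.47%. These are matches of letters and say nothing of binding.

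The targeted genes were low where the labels say so. For App the brightest probe set gave 18499 ± 1098 in WT (SD, n = 4), 2511 ± 180 in APPKO, 19654 ± 1410 in APLP2KO and 2191 ± 195.5 in N-dCKO. Aplp2 read 5984 ± 229, 5778 ± 277, 1162 ± 276 and 998.5 ± 122 in the same order. The median signal of an array was 79.7 to 102, and the highest signals were 29153 to 38601. All 10 listed markers of neurons were tested, and their mean log2 signal was 13.04 to 13.23 on the WT arrays and 13.13 to 13.31 on the N-dCKO arrays; 7 of 10 were positive in APPKO, 7 in APLP2KO and 10 in N-dCKO. Of 8 markers of pyramidal neurons, 5, 3 and 5 were positive in the same order. Their list means were 10.77 to 10.87 in WT, 10.81 to 10.90 in APPKO, 10.71 to 10.78 in APLP2KO and 10.68 to 10.80 in N-dCKO. Of 5 tested markers of dentate granule neurons, 2, 1 and 1 were positive. On the N-dCKO arrays markers of other cell types and a ratio used for RNA quality also differed from WT. All 11 tested markers of microglia had negative log2 fold changes, with list means of 9.38 to 9.63 against 9.87 to 9.97 in WT. All 10 of oligodendrocytes were negative (12.05 to 12.43 against 12.64 to 13.03), as were all 9 of the choroid plexus (5.25 to 8.62 against 9.01 to 10.03), where the 8.62 belongs to array 3. For astrocytes 7 of 8 were positive, with list means of 12.35 to 12.40 against 12.18 to 12.26 in WT. All 10 markers of interneurons were positive in N-dCKO, at 11.41 to 11.51 against 11.27 to 11.38. In the single knockouts all 11 microglia markers were negative too, at list means of 9.62 to 9.80 in APPKO and 9.58 to 9.68 in APLP2KO. For astrocytes 7 of 8 were positive in APPKO (12.30 to 12.39) and 8 of 8 in APLP2KO (12.30 to 12.38). Oligodendrocyte markers were negative for 10 of 10 in APPKO and 7 of 10 in APLP2KO, and choroid plexus markers for 8 of 9 in both. Gapdh signal at the 3′ end over that at the 5′ end was 0.797 to 0.834 in N-dCKO and 0.7525 to 0.786 in WT. In APPKO this ratio was 0.745 to 0.806 and in APLP2KO 0.741 to 0.817, so both overlapped with WT and with N-dCKO. None of these markers was at 0, and their part in the differences given below was not tested. The marker lists were chosen with earlier results of these data known, so the signs within a list are description and no independent test. In a bulk sample, fewer cells of a type and less RNA per cell cannot be told apart.

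**Figure D1:**
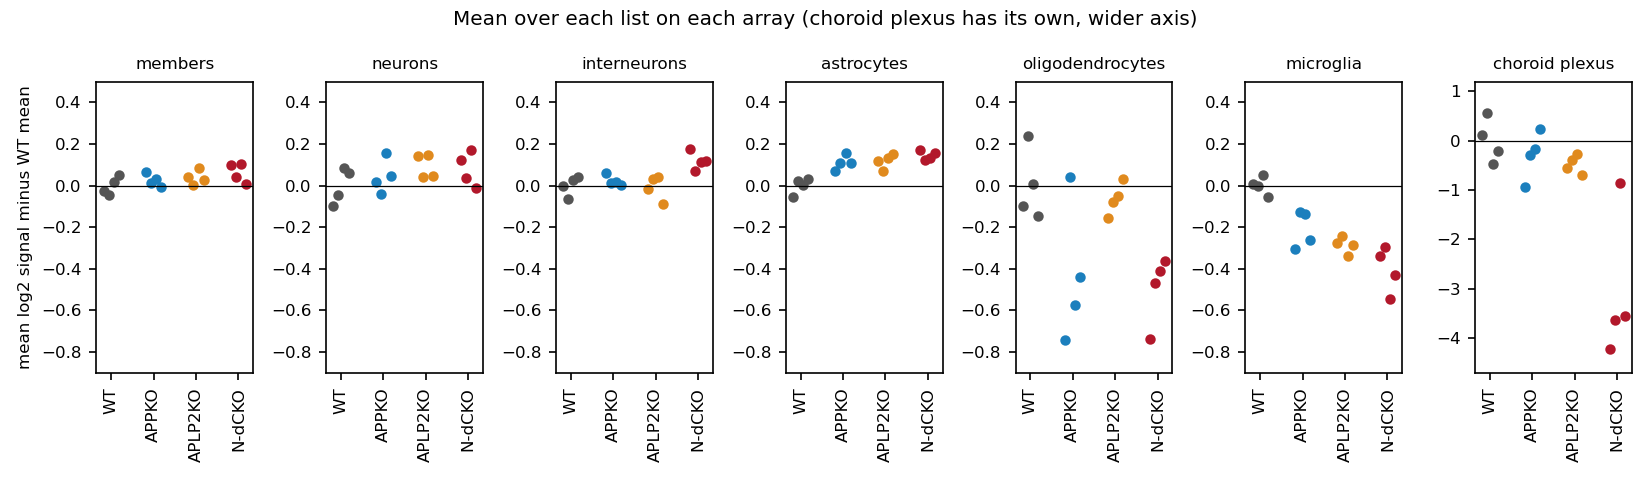
Mean log2 signal of each list on each array, minus the mean of the WT arrays; each point is 1 array, with replicates 1 to 4 from left to right within a group, and the choroid plexus has its own, wider axis. The vesicle cycle genes (panel members) move little, while the microglia list lies lower in all 3 knockout groups, and the oligodendrocyte and choroid plexus lists lie lower in N-dCKO, the former on most APPKO arrays too.

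The vesicle cycle genes were bright and steady. Their median of mean log2(signal + 9) was 12.4, against 9.47 for all genes tested, and 35 of 38 lay above the latter. The SD between arrays of a group had a median of 0.0982 on the log2 scale, against 0.1388 for all genes tested. No genes of like brightness were compared. The smaller spread, and the narrow intervals below, therefore cannot be told apart from the higher signal. Endophilin A1, encoded by Sh3gl2, a protein that bends membrane at the neck of endocytic pits, had the smallest SD of the 38 (0.0425). Complexin 2, encoded by Cplx2, a small protein that clamps and activates the SNARE complex, had the largest (0.2243). The intervals of the differences were narrow. In APPKO against WT the 95% confidence interval of all 38 genes lay within a 1.5-fold difference in either direction. In APLP2KO against WT 37 lay within 1.5-fold, the exception being Cplx2, and in N-dCKO against WT also 37, the exception being Syt2, whose interval reached 0.60 on the log2 scale. Of all genes tested, 91.2%, 90.9% and 88.9% lay within 1.5-fold in the 3 comparisons. These widths are those of single genes, with no adjustment for their number.

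**Figure D2:**
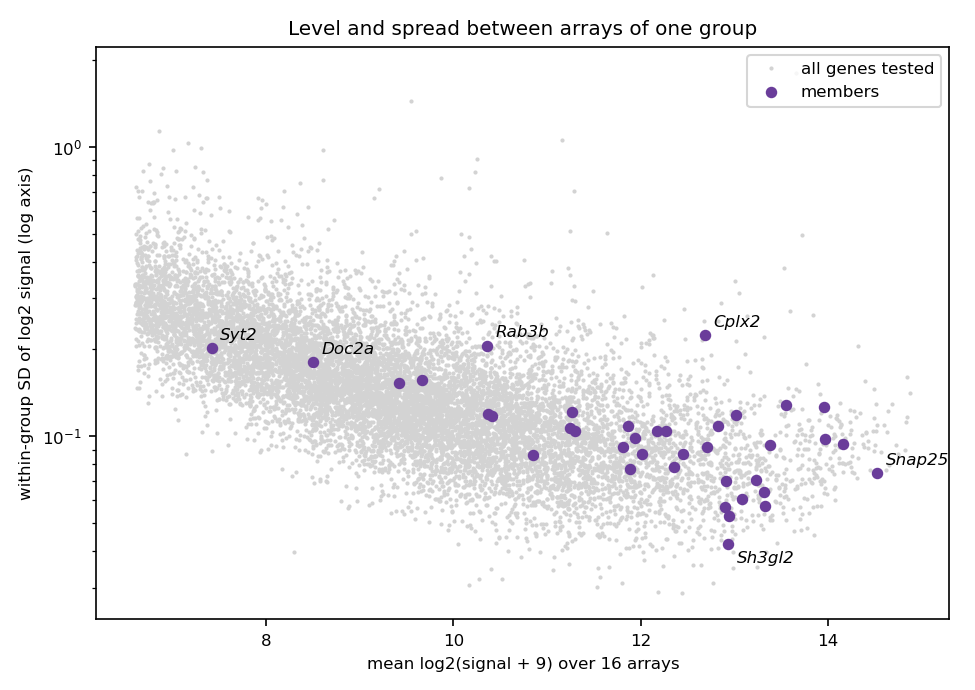
Within-group SD of log2 signal (log axis) against mean log2(signal + 9) over the 16 arrays, for all 11664 genes tested (grey) and the 38 vesicle cycle genes (purple). Most vesicle cycle genes sit at the bright, low-spread end, with Cplx2 at the largest and Sh3gl2 at the smallest SD of the 38.

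Counts of calls were 0 for the vesicle cycle genes in every comparison. In APPKO against WT limma called 0 of 38, where it called 0.00857% of all genes tested; 2 genes had an unadjusted p below 0.05, against 5.18% of all genes. In a fit of the WT and APPKO arrays alone with the replicate number as a block, 6 genes were called in place of 1, and again 0 of the 38. In APLP2KO against WT it called 0 of 38 against 0.129% of all, with 4 at an unadjusted p below 0.05 against 7.44%. In N-dCKO against WT it called 0 of 38 against 0.943% of all, with 7 at an unadjusted p below 0.05 against 12%. N-dCKO against APPKO gave 0 of 38 against 0.352% called, and 2 genes against 7.71% at an unadjusted p below 0.05; N-dCKO against APLP2KO gave 0 of 38 against 0.0257%, and 3 genes against 8.44%. The interaction, which asks whether both losses together differ from the sum of the single losses, gave 0 of 38 and 0 of all genes, and 4 genes against 4.15% at an unadjusted p below 0.05. The F test for any difference among the 4 groups gave 0 of 38 against 0.566%, and 5 genes against 10.1% at an unadjusted p below 0.05. The single exceptions among the other fits were Sv2a in N-dCKO against WT without N-dCKO array 4 (limma adjusted p = 0.0414) and with the replicate number as a block (0.039).

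More of these genes had positive than negative log2 fold changes against WT. Positive values were found for 24 of 38 genes in APPKO (48.3% of all genes tested), 26 in APLP2KO (46.7%) and 28 in N-dCKO (48.7%). The medians were 0.04, 0.05 and 0.04, beside medians between -0.01 and 0.00 for all genes tested. Centring each array on the median of all its probe sets lowered all genes alike, to medians of -0.10, -0.09 and -0.09. The vesicle cycle genes then had medians of -0.06, -0.03 and -0.04, and positive values were left for 4, 11 and 11 genes. This centring shifts all genes of an array by the same amount, so it cannot move the set relative to the median of all genes tested. Under both scalings 24, 27 and 29 of 38 genes lay above that median, by a median of 0.04, 0.06 and 0.05. With quantile normalization 24, 23 and 31 genes lay above it, by a median of 0.02, 0.02 and 0.06, and 24, 20 and 29 genes were positive. So the sign of single small values depends on the scaling. Of these changes of scaling, only quantile normalization could alter the set's place relative to other genes. The sign was kept there, with smaller medians in APPKO and APLP2KO and a larger one in N-dCKO. The sizes rested on single arrays. With each array left out in turn, the median in APPKO ranged from 0.01 (without APPKO array 1) to 0.05 (without WT array 4), that in APLP2KO from 0.02 (without WT array 2) to 0.07 (without WT array 4), and that in N-dCKO from 0.02 (without N-dCKO array 3) to 0.06 (without N-dCKO array 4). The 10 neuron markers had medians of 0.05, 0.10 and 0.06 in the 3 comparisons, with 7, 7 and 10 positive. The 8 pyramidal markers had medians of 0.01, -0.01 and 0.05, and the 5 of dentate granule neurons -0.07, -0.15 and -0.26. The part of these neurons in the values of the vesicle cycle genes was not tested, nor was that of these genes' higher signal. The 3 comparisons share the WT arrays.

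**Figure D3:**
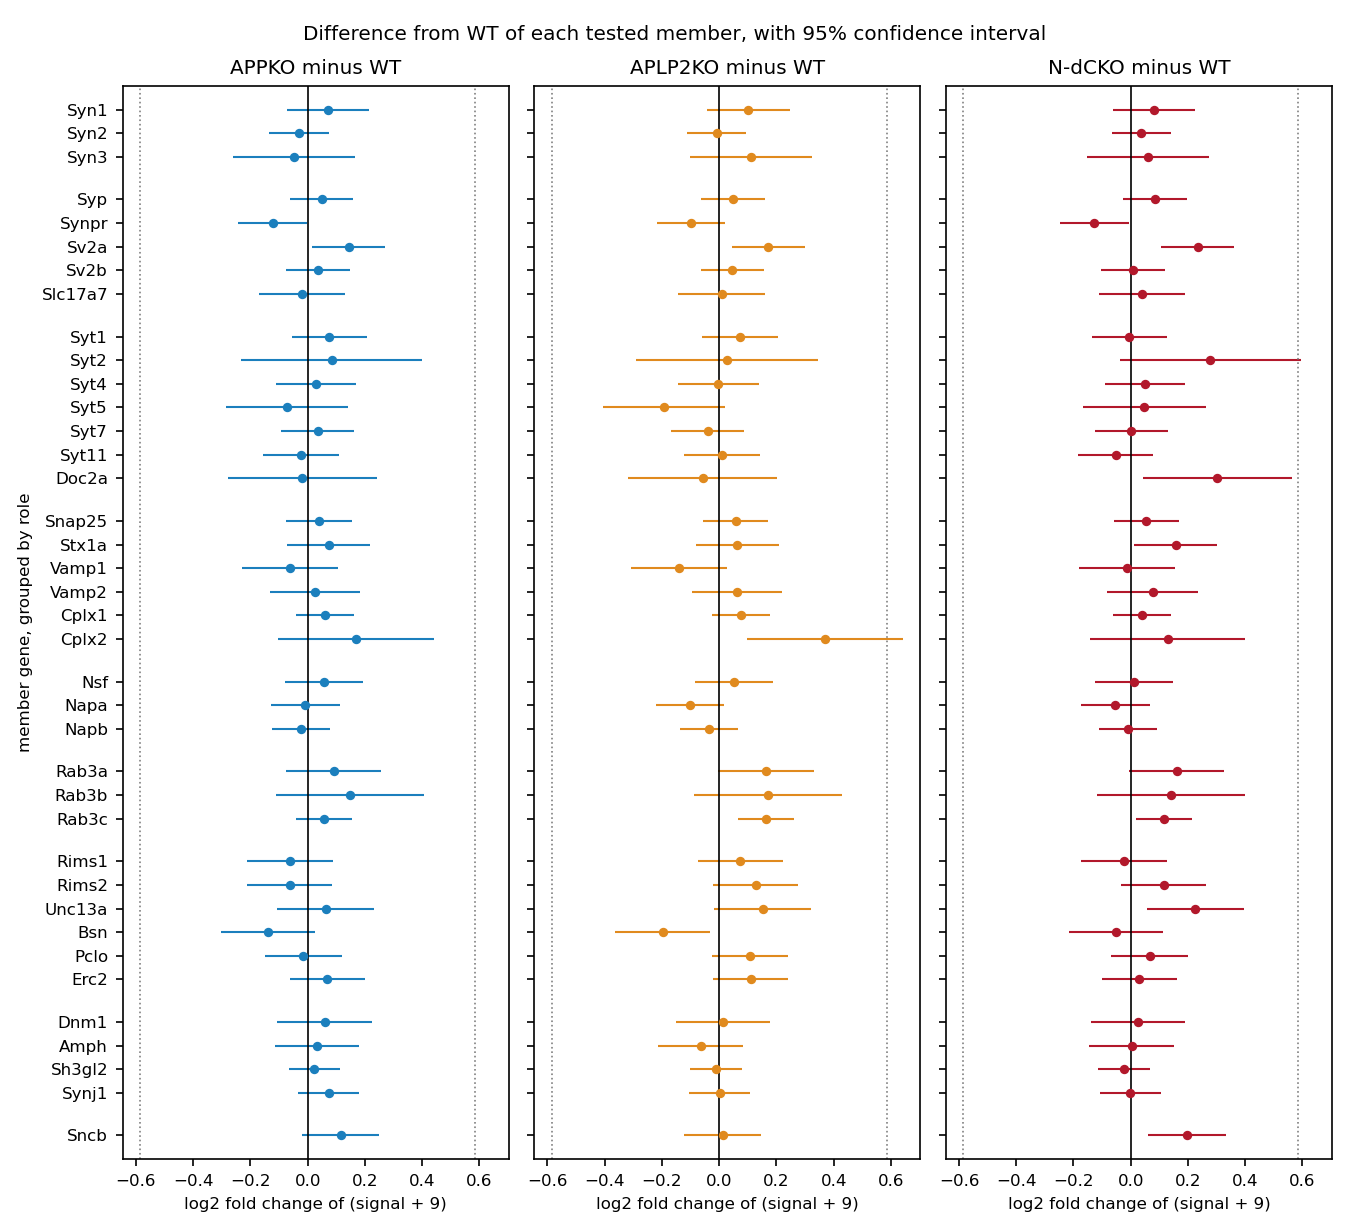
Log2 fold change of each of the 38 tested genes against WT, one panel per knockout group; points are limma estimates from 4 arrays a group, bars are 95% confidence intervals without adjustment for the number of genes, and dotted lines mark a 1.5-fold difference. The intervals of most genes cross 0, and the one farthest from 0 relative to its width is that of Sv2a in N-dCKO.

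Synapsins are phosphoproteins that tie vesicles into the reserve pool. Their 3 genes, each by its probe set of highest signal, showed no unadjusted p below 0.05 in any comparison with WT. Syn1 read 4728 in WT, 4966 in APPKO, 5064 in APLP2KO and 4994 in N-dCKO as group means. Its log2 fold change was 0.08 ± 0.07 in N-dCKO. Syn2 was at 0.04 and Syn3 at 0.06 in N-dCKO against WT.

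Among the vesicle membrane proteins and transporters, Sv2a had the highest value in each knockout group. Its signals were 3836, 3456, 3897 and 3815 on WT arrays 1 to 4. They were 4136, 3821, 4535 and 4094 in APPKO, 4313, 4173, 4301 and 4107 in APLP2KO, and 4864, 4454, 4312 and 4038 in N-dCKO. All APLP2KO arrays and all N-dCKO arrays lay above all WT arrays, while 1 APPKO array lay among the WT arrays. Against the WT array of the same number, the APPKO array was higher in 4 of 4 pairs, by 0.11, 0.14, 0.22 and 0.10 on the log2 scale, and the paired fit gave 0.14 ± 0.05 (limma adjusted p = 0.428). All 4 pairs had the same sign for 16% of all genes tested and for 6 of the 38. The log2 fold changes against WT were 0.14 ± 0.06 in APPKO, 0.17 ± 0.06 in APLP2KO and 0.23 ± 0.06 in N-dCKO, at limma adjusted p of 0.92, 0.481 and 0.0764. The order of the 3 group means is no trend beyond the spread: N-dCKO differed from APPKO by 0.09, with an interval of -0.04 to 0.22. Under the 17 alternatives the value in N-dCKO ranged from 0.15 with median centring to 0.28, with adjusted p from 0.039 to 0.483. Sv2a has a single probe set on the array. Arrays did not overlap between N-dCKO and WT for 7.36% of all genes tested, and for 3 of the 38 vesicle cycle genes, namely Sv2a, Doc2a and Sncb. Between APLP2KO and WT they did not overlap for 4.40% of all genes and for 4 of the 38, namely Sv2a, Rab3a, Rab3c and Pclo, all with APLP2KO above WT. Between APPKO and WT the share was 2.63% of all genes and 0 of the 38.

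Synaptoporin, encoded by Synpr, a relative of synaptophysin that is abundant in the mossy fibres of dentate granule neurons, was the one gene with an unadjusted p below 0.05 and a negative value in APPKO and in N-dCKO. It read 5180, 5470, 5610 and 5961 on the WT arrays, 5230, 5035, 4961 and 5168 in APPKO, 5018, 4922, 5755 and 5061 in APLP2KO, and 5059, 5100, 4767 and 5413 in N-dCKO. Every group overlapped with WT. The log2 fold changes were -0.12 ± 0.06, -0.10 ± 0.06 and -0.13 ± 0.06 in that order, at unadjusted limma p of 0.0461, 0.0992 and 0.0385. Of 5 tested markers of dentate granule neurons, 4 were negative in N-dCKO, with list means of 9.85 to 10.03 against 10.02 to 10.18 in WT, and the part of these neurons in the Synpr values was not tested. Synaptophysin, encoded by Syp and an abundant protein of the vesicle membrane, was at 0.08 ± 0.05 in N-dCKO, and Sv2b at 0.01. The vesicular glutamate transporter VGLUT1, encoded by Slc17a7, had group means of 2410 in WT, 2377 in APPKO, 2420 in APLP2KO and 2471 in N-dCKO.

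Among the calcium sensors, Syt1, the main sensor for fast release in the forebrain, read 17803 ± 1379 in WT (SD, n = 4) and 17743 ± 1314 in N-dCKO, a log2 fold change of 0.00 ± 0.06. Syt2, its counterpart in fast-spiking interneurons and the hindbrain, had group means of 153, 163, 155 and 187 from WT to N-dCKO, and its difference of 0.28 ± 0.15 in N-dCKO had a limma adjusted p of 0.492. Markers of interneurons lay higher in N-dCKO, as given above, and their part in the Syt2 value was not tested. Syt4, Syt7 and Syt11 had log2 fold changes between -0.05 and 0.05 in all 3 knockout groups.

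Doc2a, a calcium sensor with a pair of C2 domains linked to spontaneous and asynchronous release, had the largest difference of the 38 in N-dCKO against WT. It read 387, 300.2, 340.0 and 333 in WT, 365, 342, 321 and 313 in APPKO, 423, 360, 263 and 280.0 in APLP2KO, and 425, 424, 397 and 435 in N-dCKO. The N-dCKO arrays lay above all WT and all APPKO arrays and overlapped with APLP2KO through its array 1. The log2 fold change of N-dCKO was 0.30 ± 0.12 against WT, 0.32 ± 0.12 against APPKO and 0.36 ± 0.12 against APLP2KO, with limma adjusted p of 0.319, 0.517 and 0.426. The interaction was 0.38 ± 0.18 (adjusted p = 1). Arrays of N-dCKO and APPKO did not overlap for 3.99% of all genes and for 1 of the 38, Doc2a; those of N-dCKO and APLP2KO did not overlap for 5.23% of all genes and for 1 of the 38, Sncb. Syt5, a synaptotagmin also found on dense-core vesicles, read 645, 681, 637 and 505 in APLP2KO and 711, 663, 745 and 790 in N-dCKO, so that 1 array of each group overlapped with the other. The difference of N-dCKO from APLP2KO was 0.24 ± 0.10 (adjusted p = 0.529). Its WT arrays read 727, 661, 729 and 691, and its APPKO arrays 755, 621, 749 and 564.

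**Figure D4:**
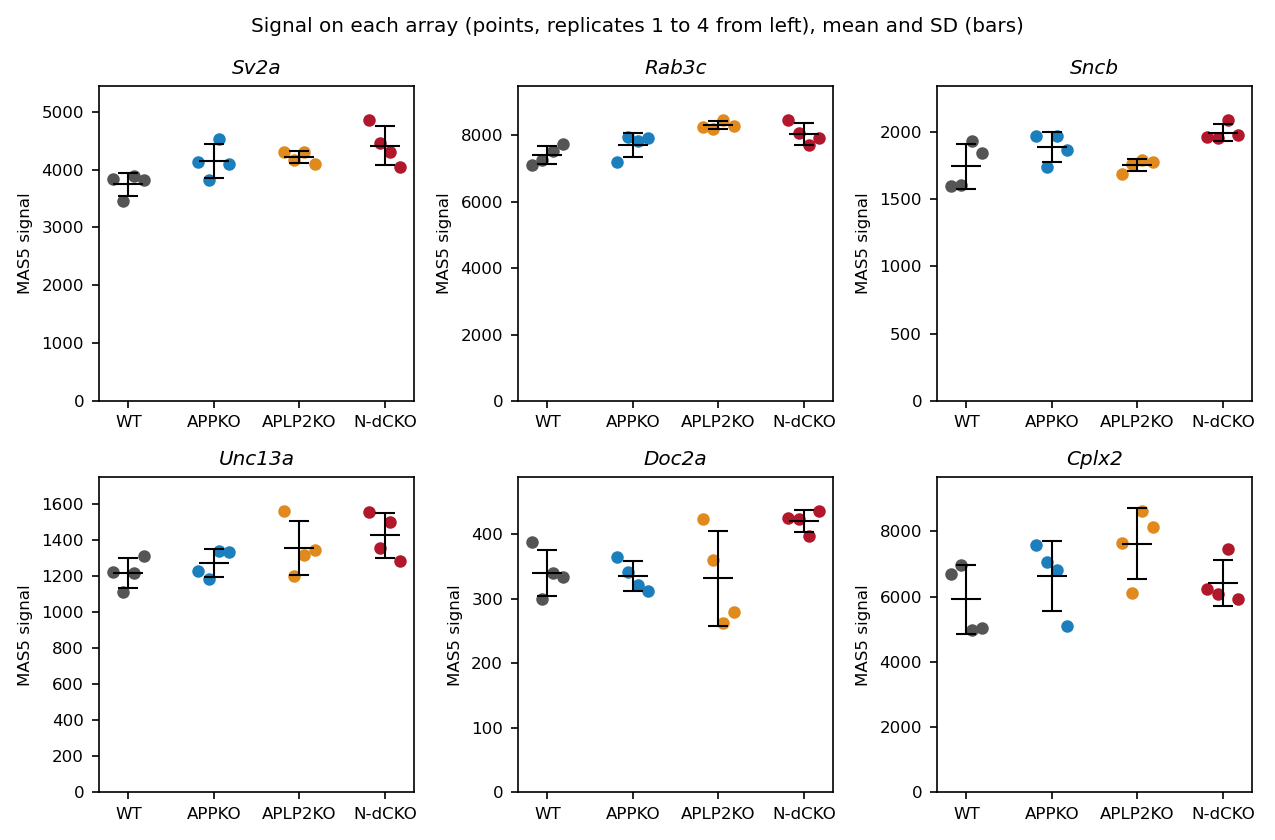
MAS5 signal of 6 genes on each array (points, replicates 1 to 4 from left to right), with the mean and SD of the 4 arrays of a group (bars); the axes start at 0. Sv2a and Rab3c lie higher in APLP2KO than on any WT array. Sv2a, Doc2a and Sncb lie higher in N-dCKO than on any WT array. The arrays of Cplx2 spread widely within groups, least so in N-dCKO.

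Of the SNARE genes, 0 passed the test. Snap25, which encodes the plasma membrane SNARE SNAP-25, read 22983 ± 799 in WT (SD, n = 4), 23619.6 ± 1050.42 in APPKO, 23943 ± 1409.8 in APLP2KO and 23895 ± 1459.8 in N-dCKO. Vamp2, the main vesicle SNARE of the forebrain, was at 0.08 ± 0.08 in N-dCKO and Vamp1 at -0.01 ± 0.08. Stx1a, which encodes syntaxin 1A, was at 0.16 ± 0.07 in N-dCKO (limma adjusted p = 0.364), with overlapping arrays.

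Complexins bind the assembled SNARE complex. Cplx2 read 6693, 6966, 4971 and 5033 in WT, 7581, 7050, 6828 and 5098 in APPKO, 7633, 6095, 8613 and 8137 in APLP2KO, and 6228, 6065, 7459 and 5928 in N-dCKO. WT arrays 3 and 4 and APPKO array 4 were low, and all knockout groups overlapped with WT. The difference of APLP2KO from WT was 0.37 ± 0.13 (limma adjusted p = 0.471), the largest of the 38 in that comparison, and the interaction was -0.41 ± 0.18 (adjusted p = 1). The other 2 Cplx2 probe sets gave -0.04 and 0.02 in APLP2KO against WT, and the mean over the 3 gave 0.12. Cplx1 was at 0.08 ± 0.05 in APLP2KO and at 0.04 ± 0.05 in N-dCKO.

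Of the genes that take SNAREs apart, 0 passed the test. Nsf, the ATPase that does so, was at 0.06, 0.05 and 0.01 in APPKO, APLP2KO and N-dCKO against WT, each ± 0.07. Napa and Napb, which encode alpha- and beta-SNAP, lay between -0.10 and -0.01 in the 3 groups by their probe sets of highest signal, with no unadjusted p below 0.05. A dimmer Napa probe set gave -0.25 ± 0.10 in N-dCKO (limma adjusted p = 0.316 over all probe sets) with overlapping arrays. Another Napb probe set gave 0.13 ± 0.06 in APLP2KO (adjusted p = 0.653), with all APLP2KO arrays above all WT arrays.

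Rab3 proteins are small GTPases that bind vesicles to RIM at the active zone, and 0 of their 3 genes passed the test. Rab3c had the smallest p of the 38 in APLP2KO against WT. It read 7121, 7264, 7528 and 7752 in WT, 7196, 7954, 7821 and 7920 in APPKO, 8257, 8200, 8475 and 8290 in APLP2KO, and 8464, 8089, 7702 and 7921 in N-dCKO. All APLP2KO arrays lay above all WT arrays, and the N-dCKO arrays overlapped with WT through array 3. The log2 fold changes were 0.06 ± 0.05, 0.16 ± 0.05 and 0.12 ± 0.05, with limma adjusted p of 1, 0.311 and 0.306. Another 2 Rab3c probe sets of lower signal gave 0.29 and 0.32 in APLP2KO, and one with a WT mean of 130.1 gave -0.06. The mean over the probe sets gave 0.18. Rab3a was at 0.16 ± 0.08 in APLP2KO and in N-dCKO, and Rab3b at 0.17 and 0.14, each ± 0.12.

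RIM, Munc13, Bassoon, Piccolo and ELKS are large scaffolds that dock and prime vesicles beside calcium channels. Unc13a, for the priming factor Munc13-1, read 1219, 1113, 1217 and 1313 in WT, 1229, 1181, 1338 and 1332 in APPKO, 1559, 1199, 1319 and 1346 in APLP2KO, and 1556, 1357, 1500 and 1285 in N-dCKO. One N-dCKO array lay within the WT range. The difference of N-dCKO from WT was 0.23 ± 0.08 (limma adjusted p = 0.239). Rims2, for RIM2, read 2657, 2393, 2450 and 2272 in WT, 2417, 2554, 2059 and 2338 in APPKO, 2618, 2777, 2422 and 2864 in APLP2KO, and 2858, 2590, 2619 and 2512 in N-dCKO. It was higher in N-dCKO than in APPKO by 0.18 ± 0.07 with overlapping arrays (adjusted p = 0.54).

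Bsn, for Bassoon, had the lowest value of the 38 in APLP2KO. It read 2581, 2695, 3017 and 2247 in WT, 2524, 2472, 2268 and 2263 in APPKO, 2222, 2220 and 2265 on APLP2KO arrays 1, 2 and 4 with 2433 on array 3, and 2559, 2208, 2661 and 2715 in N-dCKO. WT array 4 lay among the APLP2KO arrays. The differences from WT were -0.14, -0.20 and -0.05, each ± 0.08 (limma adjusted p = 1, 0.558 and 0.86), and the interaction was 0.285 ± 0.11 (adjusted p = 1). Bsn lies on chromosome 9, as does Aplp2, but not within 10 Mb of it. Pclo, for Piccolo, gave different answers by probe set: the probe set with the highest signal gave 0.11 ± 0.06 in APLP2KO and 0.07 ± 0.06 in N-dCKO, and a dimmer one gave 0.01 and 0.27 ± 0.08, the latter at an adjusted p of 0.117 over all probe sets. Rims1 and Erc2 lay between -0.06 and 0.11 in the 3 groups.

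Of the endocytosis genes, Dnm1, for the GTPase dynamin 1 that cuts vesicles from the membrane, Amph, Sh3gl2 and Synj1 had log2 fold changes between -0.07 and 0.07 in all 3 comparisons with WT, and 0 had an unadjusted p below 0.05. Sh3gl2 read 7396, 7989, 7906 and 8021 in WT and 8014, 7728, 7634 and 7400 in N-dCKO, with an interval of -0.12 to 0.07 for the difference. In APPKO it read 8082, 8000, 7798 and 7941, and in APLP2KO 7876, 7703, 7991 and 7517. Synj1, for the lipid phosphatase synaptojanin 1, lies within 10 Mb of App on chromosome 16 and read 10077, 10605, 10086 and 10076 as group means from WT to N-dCKO.

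Sncb, for beta-synuclein, a vesicle-associated chaperone-like protein, had the smallest p but 1 in N-dCKO against WT. It read 1600, 1604, 1929 and 1842 in WT, 1971, 1739, 1971 and 1860 in APPKO, 1685, 1762, 1788 and 1774 in APLP2KO, and 1962, 1950, 2089 and 1973 in N-dCKO. All N-dCKO arrays lay above all WT and all APLP2KO arrays, but WT arrays 1 and 2 lay well below arrays 3 and 4. The difference of N-dCKO was 0.20 ± 0.06 from WT and 0.18 ± 0.06 from APLP2KO (limma adjusted p = 0.182 and 0.426). APPKO was at 0.11 ± 0.06 (adjusted p = 0.996) and APLP2KO at 0.01 against WT.

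Probe sets of the same gene did not always point the same way. Of the 98 probe sets, 83 passed the filter, and 24 genes had more than 1 among them. In N-dCKO against WT the probe sets of 16 of these genes all had the same sign, in APPKO 13 and in APLP2KO 11. Of the 83, 49, 53 and 56 were positive in APPKO, APLP2KO and N-dCKO against WT, with medians of 0.02, 0.03 and 0.04. Among all probe sets kept, 50.3%, 50.4% and 52% were positive. Fitted one by one over all 22503 probe sets kept, 0 of 83 were called in any comparison, where 0.667% of all probe sets were called in N-dCKO against WT, 0.147% in APLP2KO, 0.0133% in APPKO, 0.262% in N-dCKO against APPKO and 0.0267% in N-dCKO against APLP2KO. At an unadjusted p below 0.05 were 11, 9 and 4 of the 83 in N-dCKO, APLP2KO and APPKO against WT, beside 11.2%, 7.1% and 4.9% of all probe sets.

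**Figure D5:**
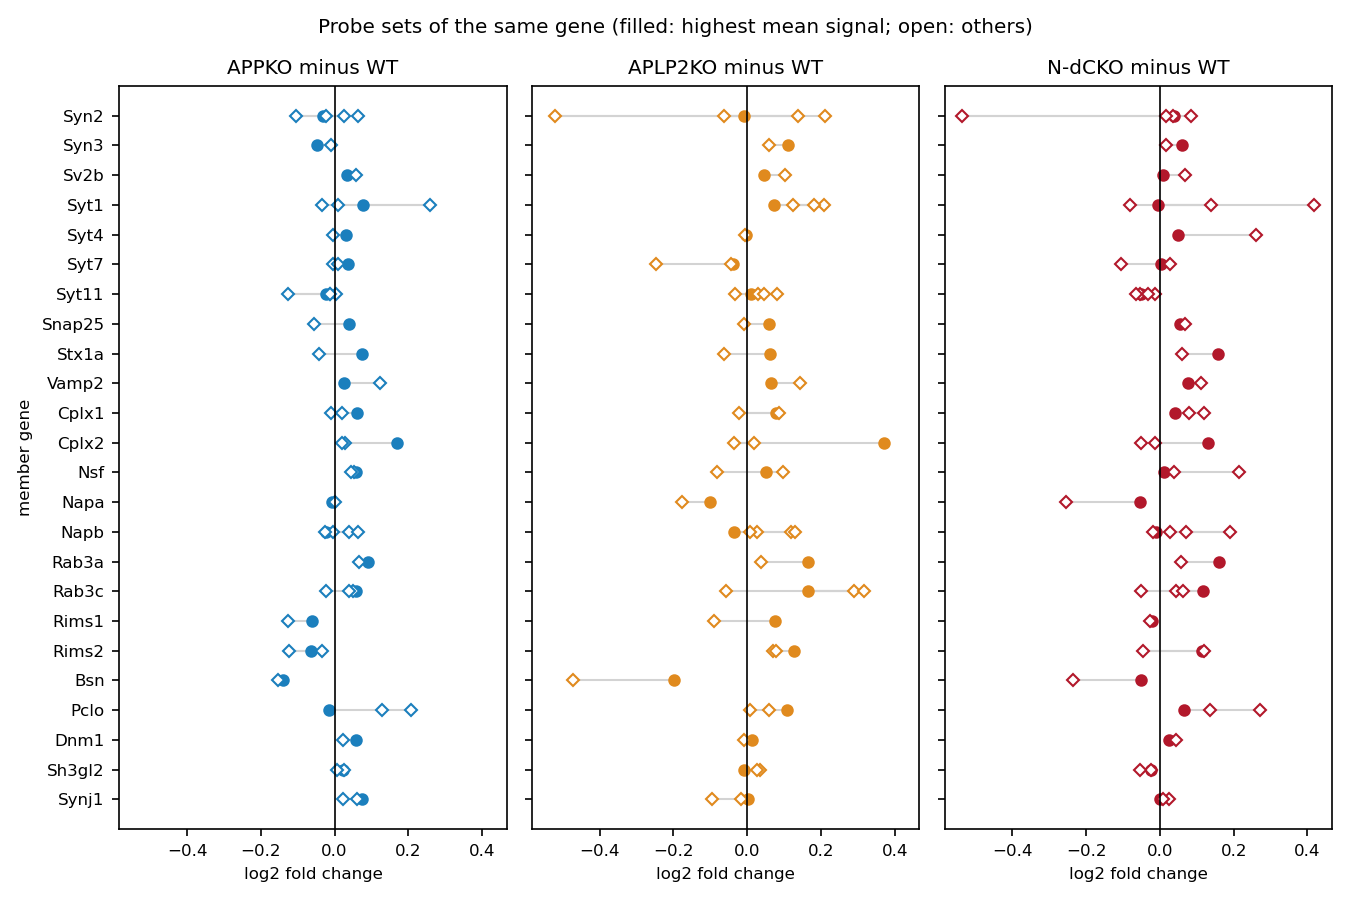
Log2 fold change against WT of every probe set that passed the filter, for the 24 genes with more than 1; filled circles are the probe set with the highest mean signal, which stands for the gene elsewhere, and open diamonds the others. Lines join probe sets of 1 gene. The probe sets of Cplx2 in APLP2KO, and of Syn2, Syt1 and Pclo in N-dCKO, lie apart by more than the values of most genes.

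Within groups the genes varied partly together. Over the 703 pairs of the 38 genes, the correlation of their deviations from the group means over 16 arrays had a median of 0.186, beside 0.005 for all pairs of genes tested. The highest pairs were Vamp2 with Syn2 (r = 0.888) and Nsf with Syt1 (0.844), and the lowest was Dnm1 with Rab3a (-0.761). The points share the same arrays, their scaling and a high signal, so these are descriptions of the arrays. Mean log2 signal over the 38 genes was 11.999 to 12.10 on the WT arrays, 12.04 to 12.11 in APPKO, 12.05 to 12.13 in APLP2KO and 12.05 to 12.15 in N-dCKO, and every group overlapped with every other.

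A wider list of 123 other genes from presynaptic gene families, some of them acting mostly outside neurons, was set beside these 38. Of them 110 were tested: further SNAREs, synaptotagmins, active zone proteins, vesicle proteins, proton pump subunits and endocytic proteins. In APPKO and APLP2KO against WT 0 of 110 were called, where 0.0686% of all genes fell and 0.0600% rose in APLP2KO and 0.00857% were called in APPKO. At an unadjusted p below 0.05 were 6 and 7 of the 110 (5.45% and 6.36%), beside 5.18% and 7.44% of all genes tested. In N-dCKO against WT 3 of 110 fell and 0 rose, where 0.694% of all genes tested fell and 0.249% rose, and 16 (14.5%) had an unadjusted p below 0.05, beside 12% of all. Vamp8, for a SNARE of endosomes and of secretion outside neurons, fell by 0.60 ± 0.11 on the log2 scale (limma adjusted p = 0.0115). It read 453, 513, 376 and 438 in WT and 248, 307, 329 and 274 in N-dCKO, with no overlap. Sh3gl3, for endophilin A3, fell by 0.33 ± 0.07 (adjusted p = 0.022), from 2749, 3020, 2862 and 2595 to 2423, 2101, 2084 and 2300.2. Syngr2, for cellugyrin, a vesicle protein mostly outside neurons, fell by 0.53 ± 0.13 (adjusted p = 0.0462), from 377, 396, 373 and 380.1 to 204, 277, 270 and 303. Both again showed no overlap. The markers of microglia, oligodendrocytes and choroid plexus lay lower on the same arrays, with the values given above, and their part in these falls was not tested. The call of Syngr2 was lost in 9 of 16 alternatives, with adjusted p up to 0.166 without N-dCKO array 1. That of Sh3gl3 was lost in 5 of 17, with adjusted p up to 0.1 without WT array 2, and that of Vamp8 without WT array 2 or without N-dCKO array 1, at up to 0.0648.

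Where no gene was called, the genes with the smallest p on the wider list had these values. In APPKO against WT Sh3gl3 was at -0.23 ± 0.07 and Epn1, for the endocytic adaptor epsin 1, at 0.30 ± 0.10 (limma adjusted p = 0.826 for both). In APLP2KO against WT Stx6, for a SNARE of the trans-Golgi network, was at -0.29 ± 0.10 (adjusted p = 0.427) and Ppfia1, for liprin-alpha-1, at -0.33 ± 0.12 (0.517). The median log2 fold change of the 110 genes was 0.01 in APPKO, -0.01 in APLP2KO and 0.01 in N-dCKO.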

How the data were processed

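Per the submitters' processing notes, the authors made the deposited values with MAS5, which gives 1 linear intensity per probe set; its version and settings are not given in the sources used here. Every array had a mean of 500.003 after trimming 2% at each end, so the arrays had been scaled to a common mean. Of 45101 probe sets, 64 were controls, 34945 were paired with 1 symbol, 932 with several and 9160 with none. Signals were turned to log2(signal + 9), so a fold change is on that scale and understates the change of low genes. Probe sets whose mean log2 signal was under the table's median (6.60, or 88.2 as signal) were left out, which kept 22503, and the probe set with the highest mean signal stood for each gene. limma 3.58.1 (R 4.3.3) fitted 1 mean per group over the 16 arrays with a variance trend, and the Benjamini-Hochberg adjustment ran over 11664 genes with a threshold of 0.05. The script was tested on simulated data. Precision is limited by how few arrays there are, with a median SE of 0.0979 for a difference of 2 groups. Same-numbered WT and APPKO arrays deviated together (r = 0.301, 0.286, 0.195 and 0.192 over genes), so these were treated as pairs in an added fit, chosen after seeing the data; the labels give the numbers but no reason for them. Values per array are given for the 3 genes with the smallest p in each comparison and for those with the largest and smallest within-group SD; genes of the wider list are named where called or, against WT, among the 2 smallest p. Other genes are given as values by role. The genes and lists were chosen with earlier results of these data known. Alternatives covered scaling, pseudocount, filter, probe sets, variance trend, replicate block and each array left out. Platform symbols matched GRCm38.p6 by gene number for 34741 probe sets, and 0 changed.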

Additional observations from a re-analysis of the deposited data

Results flagged for a closer look

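In 8 of 152 combinations of a gene and a group (5.26%), 1 array lay far from the other 3 by Dixon's criterion; chance gives about 1 in 20. In APPKO, array 1 read 6286 for Syt7 (the others 5525 to 5536) and 7196 for Rab3c (7821 to 7954). In WT, array 4 read 9652 for Vamp2 (7520 to 7583). In APLP2KO, array 4 read 3600.0 for Rims1 (4005 to 4075) and 4225 for Pclo (3577 to 3655). In N-dCKO, array 3 read 18790 for Dnm1 (15010 to 15060), 10990 for Synj1 (9709 to 9837) and 2089 for Sncb (1950 to 1973). N-dCKO array 3 is also the array with the highest choroid plexus mean of its group, 8.62 against 5.25 to 5.92 on the other 3.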

How the results depend on the processing

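Calls of vesicle cycle genes were 0 in 134 of 136 recomputed counts. The exceptions were 1 gene, Sv2a, in N-dCKO against WT with the replicate block (adjusted p = 0.039) and without N-dCKO array 4 (0.0414), so that the count with an array left out was 0 to 1. The genes named for their p in a comparison kept the sign of that comparison's value under the alternatives run. Their choice by small p in the same data favours this. Of the 38 genes, 20, 15 and 17 had the other sign against WT under median centring (APPKO, APLP2KO and N-dCKO), and 2, 6 and 1 under quantile normalization. The median of the vesicle cycle genes turned negative against WT under median centring with that of all genes. Its difference from all genes cannot change under this centring. The interaction median went from -0.01 to 0.07, with 29 positive. With quantile normalization the N-dCKO minus APLP2KO median was 0.05. Counts over all genes moved more. With the replicate block they were 30 in APLP2KO against WT, 198 in N-dCKO against WT and 17 in N-dCKO against APLP2KO, and in the fit of WT and APPKO alone 6. N-dCKO against APLP2KO gave 17 with median centring, 5 with 4 times the pseudocount, and 1 with no filter, with the 75th percentile filter or without the variance trend. The 75th percentile filter gave 3 in APLP2KO against WT, 60 in N-dCKO against WT and 15 in N-dCKO against APPKO, and no variance trend 73 and 20 in the latter 2. With each array left out in turn the counts were 1 to 16 in APPKO against WT (16 without APPKO array 2), 9 to 18 in APLP2KO (9 without WT array 1, 2 or 3) and 45 to 115 in N-dCKO (45 without WT array 2, 46 without N-dCKO array 1, 64 without WT array 1, 65 without N-dCKO array 2). They were 19 to 56 in N-dCKO against APPKO (19 without APPKO array 4, 20 without N-dCKO array 4, 22 without APPKO array 3), 1 to 35 against APLP2KO (35 without N-dCKO array 3, 1 without N-dCKO array 1, 2 or 4 or any APLP2KO array) and 0 to 11 for the interaction (11 without N-dCKO array 3). The cause was not tested. By the check used, only WT with APPKO was taken as paired. APLP2KO and N-dCKO came closest, with r of 0.082 to 0.208 and each array correlating best with its own number. The latter also held for WT with APPKO. No fit of APLP2KO and N-dCKO alone as pairs was run. Their comparison took a pairing into account only with the replicate block, which gave 17 calls in place of 3.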

Other observations

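The subunits of the vesicular proton pump, which acidifies vesicles so that transmitter can be loaded, stayed within narrow bounds. Of 15 tested genes, 0 had an unadjusted limma p below 0.05 in any of the 6 comparisons, beside 4.15% to 12% of all genes tested. With so few genes, a count of 0 is not far from these shares. Their log2 fold changes against WT lay between -0.10 and 0.10. The median SE of a difference of 2 groups was 0.0555 for these genes and 0.0979 for all genes tested. The part of signal level in these bounds was not tested. Among 12 other synaptotagmins and calcium sensors, 2 had an unadjusted p below 0.05 in N-dCKO against WT, led by Syt16 at 0.31 ± 0.09 (limma adjusted p = 0.1). Among 21 other active zone genes, 5 higher and 1 lower had an unadjusted p below 0.05 in the same comparison, beside 12% of all genes tested, and 0 were called. The other families of the wider list had 2 of 21 SNARE genes, 2 of 15 vesicle protein genes and 4 of 26 endocytosis genes below it. The active zone family is thus the highest of several, and no family was tested as a set. Syt16 was named after its value was seen.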
